A study of Mus musculus with 27 samples.

Results

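mmu-miR-701-5p, mmu-miR-7687-3p, mmu-miR-7687-5p, mmu-miR-718 and mmu-miR-1893, written below without the species prefix, are 5 mature microRNA entries of mouse cortex. They were picked from a table of 1842 entries for the size of their rise in ischemic cortex 12 and 24 h after a stroke. The choice also took in miR-701-3p, the other arm of the miR-701 hairpin, where the table held it, which it did. All 5 members passed the filter on low counts, which kept 1470 entries for testing, while miR-701-3p did not pass it and is described by its counts. The label of strong risers held for 4 of the 5: miR-7687-5p had a group mean between 5.17 and 9.33 CPM (scaled counts, defined below) in all 9 groups.

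The mice were wild-type C57BL6 animals aged 7-8 weeks. In the stroke groups a suture closed the right middle cerebral artery for 35 min (middle cerebral artery occlusion, MCAO). Cortex was then taken 3, 6, 12 or 24 h into recovery from the ipsilateral (occluded) hemisphere, giving the groups ipsi_3h to ipsi_24h, or from the contralateral (opposite) hemisphere, giving contra_3h to contra_24h. Sham animals had the same anesthesia and exposure of the arteries with no suture, and no time of recovery is given for them. Each of the 9 groups has 3 small RNA libraries, numbered by replicate, and each number stands for its own day of surgery. Entry to the stroke groups required a deep fall and a prompt recovery of cerebral blood flow, so animals with a milder blockade are not represented.

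MicroRNAs are made from hairpin transcripts. Drosha and Dicer cut the hairpin to a duplex of its 5p and 3p arms, and one strand is kept by an Argonaute protein, which it guides to messenger RNAs through its seed, bases 2 to 8. The strand that is kept is usually far more abundant than its partner, which is degraded.

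The mature sequences are shown because they let the members that have one be told apart and show that those share no seed. They are RefSeq's for GRCm38.p6, which holds an entry for 4 of the 5 members and none for miR-1893. They are written 5′ to 3′ with the seed in capitals.
miR-701-5p: uUAGCCGCugaaauagaugga
miR-701-3p: uAUCUAUUaaagaggcuagc
miR-7687-3p: cCACUCAGucgccccgccaca
miR-7687-5p: aGGCGGGGaaccugaggcgcaggcu
miR-718: cUUCCGCCcggccgggugucg
No other mature sequence in the RefSeq table had the seed of any of these 5 sequences, and no pair of them shared one. The seed of miR-1893 was not compared. The closest other entry was 8 edits away for miR-701-5p, 7 for miR-7687-3p and 9 for miR-718, so none of these 3 has a near-identical copy in that table. The members also differed in base composition. GC content was 42.9% in miR-701-5p, below the median of 52.4% over the 1290 tested entries with a sequence, against 71.4% in miR-7687-3p and 81.0% in miR-718.

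The hairpins shown here lie in protein-coding genes on 3 chromosomes. Mir701 is in an intron of Ttc28 at chr5:111004144-111004252 (plus strand, GRCm38), and Mir7687 is in an intron of Gse1 at chr8:120538696-120538754 (plus strand). Mir718 (chrX:74023849-74023936, minus strand) overlaps the first exon of Irak1, whose product is a kinase of interleukin-1 and Toll-like receptor signalling. The mature miR-718 lies in the 5′ UTR of Irak1 and matched 5 annotated Irak1 transcripts exactly in the sense direction. By sequence alone a fragment of that messenger RNA and miR-718 cannot be told apart. Whether such fragments were counted as miR-718 was not tested. The mature sequences of miR-701-5p and of miR-7687-3p matched no annotated transcript other than their own hairpin. In the hairpins below, which show where the rising arm sits, its bases are in capitals.
Mir701: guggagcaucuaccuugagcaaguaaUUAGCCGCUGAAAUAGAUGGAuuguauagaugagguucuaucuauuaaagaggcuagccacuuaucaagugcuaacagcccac
Mir7687: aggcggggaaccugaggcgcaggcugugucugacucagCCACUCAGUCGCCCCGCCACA
The rising arm is bases 27 to 47 of the Mir701 hairpin, on its 5′ side, and bases 39 to 59 of the Mir7687 hairpin, its 3′ end.

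Total counts ranged from 856591 to 1903416 per library. Levels are in CPM, which are counts scaled to a common library total after that total is corrected by edgeR's TMM factor. 2 libraries stood apart in another microRNA: miR-182-5p, which is abundant in epithelial and sensory tissue, was at 22414 CPM in sham replicate 2 and 20225 CPM in ipsi_6h replicate 3, and at no more than 329 CPM in the other 25. The neuronal markers miR-124-3p, miR-9-5p, miR-128-3p and miR-138-5p were all present, with a summed level from 96226 to 155471 CPM in sham. In bulk tissue, more of a microRNA per cell and a larger share of the cells that hold it cannot be told apart.

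**Figure D1:**
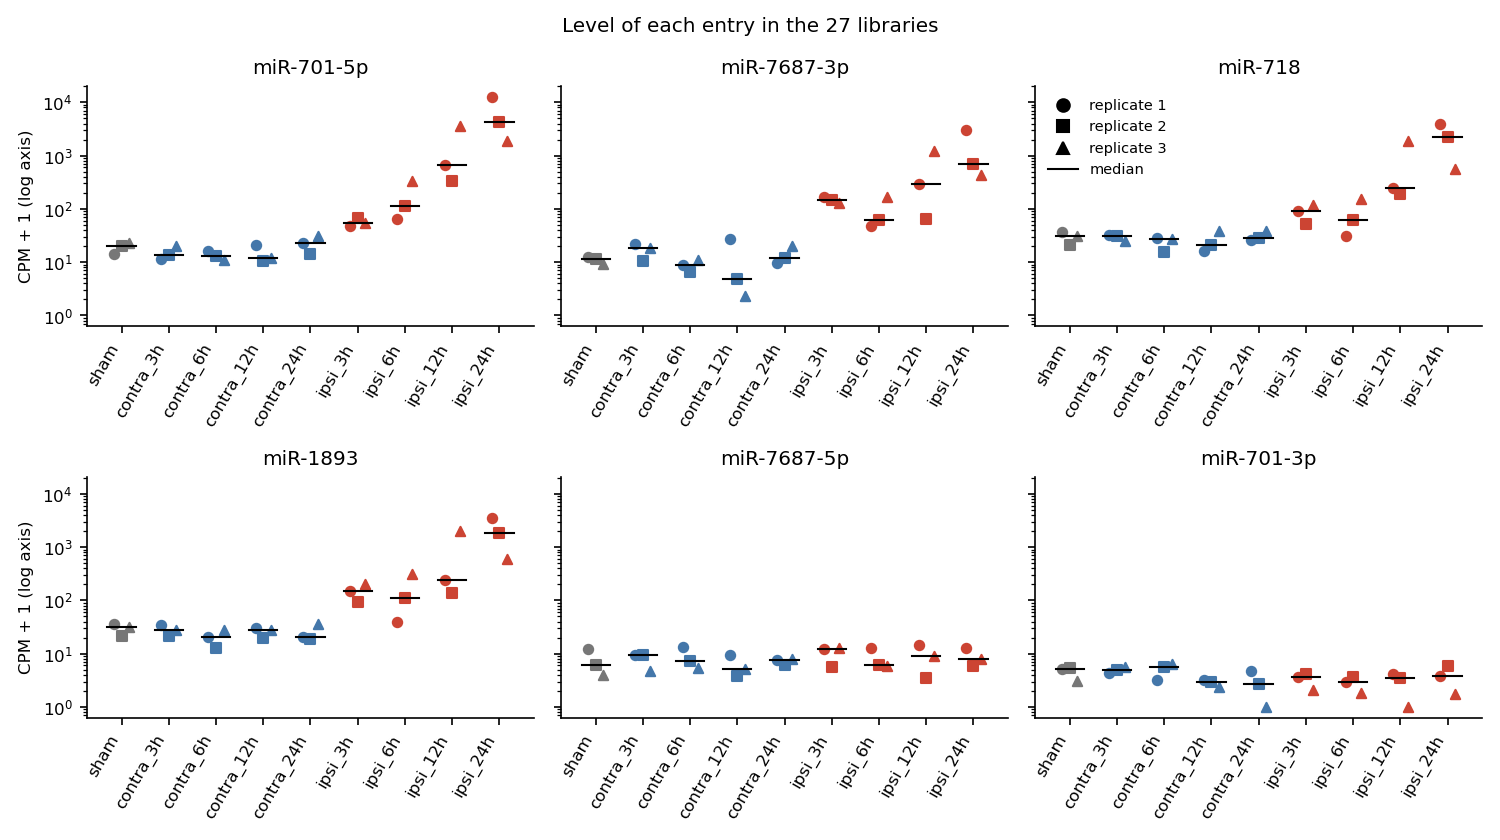
CPM + 1 of each entry on a log axis in the 27 libraries, by group, with the marker giving the replicate, the line the median of 3 and the colour sham (gray), contralateral (blue) or ipsilateral (red). The 4 rising entries lie above every sham and contralateral library at 3 h and reach 431 to 12614 CPM at 24 h, while miR-7687-5p and miR-701-3p stay under 14 CPM in every library.

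The members were scarce outside the ischemic hemisphere. Over the 15 sham and contralateral libraries miR-701-5p had a lowest, median and highest level of 9.51, 13.5 and 30.4 CPM. Those of miR-7687-3p were 1.37, 9.87 and 25.7 CPM, from counts of 1 to 52. miR-718 and miR-1893 were slightly higher, at 14.7, 27.6 and 37.4 CPM and at 12.0, 26.3 and 35.0 CPM. The 5 members together took between 0.00395% and 0.0135% of the counts of these libraries. None of the 5 passed edgeR's test between contralateral cortex and sham at 3 h or at 6 h, where 0% of the 1470 entries did, at either time and in either direction (26 and 34 entries had an unadjusted p under 0.05). Their log2 fold changes against sham lay between -0.56 and 0.69 at these times. At 12 and 24 h, where the contralateral libraries were the reference of the choice, the values lay between -0.40 and 0.32 and are given with no test.

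The question put to the early libraries is whether the rise had begun at 3 and 6 h, times that played no part in the choice of the members. At 3 h miR-7687-3p was at 164, 143 and 126 CPM in replicates 1 to 3 of ipsi_3h, against 16.1 ± 5.89 CPM in contra_3h (SD, n = 3). miR-1893 was at 151, 90.7 and 204 CPM, against 26.6 ± 6.78 CPM. For miR-718 the 3 values were 91.2, 51.3 and 119 CPM, against 28.5 ± 3.49 CPM, and for miR-701-5p they were 47.6, 66.3 and 54.0 CPM, against 14.1 ± 4.52 CPM. So at 3 h all 3 ischemic libraries lay above all 3 contralateral ones for 4 of the 5 members, an arrangement found for 6.39% of the tested entries. These 4 also lay above every sham and contralateral library of any time. The share of all tested entries that did so was not worked out. For miR-7687-5p the groups overlapped, with 11.4, 4.73 and 11.9 CPM in ipsi_3h and 6.88 ± 2.81 CPM in contra_3h.

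Fitted log2 fold changes at 3 h were 3.15 ± 0.84 (SE) for miR-7687-3p, 2.46 ± 0.76 for miR-1893, 2.01 ± 0.72 for miR-701-5p, 1.60 ± 0.70 for miR-718 and 0.35 ± 0.50 for miR-7687-5p. None was called, which here means an edgeR quasi-likelihood p under 0.05 after Benjamini-Hochberg adjustment over the 1470 entries. The smallest adjusted p of the 5 was 0.22, for miR-7687-3p, and 0% of all entries were called, with 58 at an unadjusted p under 0.05. The median of the 5 was 2.01, beside 0.01 over all entries tested. In this fit the spread is shared over all 27 libraries, which include the widely scattered late ischemic ones. When the 15 libraries of sham, 3 h and 6 h were fitted alone, miR-7687-3p had an edgeR adjusted p of 0.0018 with a log2 fold change of 3.08 ± 0.44, and was the 1 member called, where 0.576% of 1389 entries were. DESeq2 also called miR-7687-3p (adjusted p = 0.0082), where it called 0.408% of entries higher.

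At 6 h the scatter between surgery days was wider. miR-701-5p stood at 62.7, 114 and 328 CPM in the ischemic libraries and at 12.4 ± 2.83 CPM in contra_6h (SD, n = 3). miR-1893 was at 38.8, 110 and 306 CPM, against 19.4 ± 7.19 CPM. miR-7687-3p was at 45.8, 61.1 and 168 CPM, against 7.71 ± 2.17 CPM, and miR-718 at 29.9, 62.0 and 154 CPM, against 22.9 ± 7.10 CPM. In each of these 4 the highest value was that of ipsi_6h replicate 3, the library rich in miR-182-5p, whose part in these values was not tested. The groups did not overlap for the same 4 members, where 7.48% of tested entries had all ischemic libraries higher, although for miR-718 the margin was small. Only 3 members lay above every sham and contralateral library of any time at 6 h, since miR-718 in ipsi_6h replicate 1 (29.9 CPM) was under the highest of those 15 libraries (37.4 CPM). For this wider reference too, the share of all tested entries was not worked out. miR-7687-5p, at 12.0, 5.17 and 4.98 CPM, overlapped with contra_6h at 7.66 ± 4.02 CPM.

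The 6 h log2 fold changes were 3.75 ± 0.77 (SE) for miR-701-5p, 3.57 ± 0.91 for miR-7687-3p, 2.97 ± 0.80 for miR-1893, 1.85 ± 0.73 for miR-718 and -0.08 ± 0.57 for miR-7687-5p. None passed the edgeR test over 27 libraries, in which 0% of entries passed and 64 had an unadjusted p under 0.05. The smallest adjusted p of the 5 was 0.076, for miR-701-5p. In the fit to 15 libraries 3 of the 5 rose, miR-701-5p and miR-7687-3p with an edgeR adjusted p of 0.00055 each and miR-1893 with 0.038. Those 3 were the whole of what this fit called (0.216% of 1389 entries). The same 3 were called by DESeq2, where 0.272% of entries were called higher. Without ipsi_6h replicate 3 the 27-library values were lower, at 2.82 for miR-701-5p and 1.95 for miR-1893, and without ipsi_6h replicate 1 miR-701-5p was called (4.14, adjusted p = 0.025).

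Averaging the hemisphere difference over 3 and 6 h sets 6 ischemic against 6 contralateral libraries, none of which chose the members. In the edgeR fit to all 27 libraries 3 of the 5 members rose, where 0.816% of the 1470 entries were called, all of them higher. miR-7687-3p had a mean log2 fold change of 3.36 ± 0.62 (SE) and miR-701-5p of 2.88 ± 0.53, each with an adjusted p of 0.0050. miR-1893 had 2.72 ± 0.55 with 0.011. miR-718 did not pass, with 1.72 ± 0.51 and an adjusted p of 0.18, nor did miR-7687-5p, with 0.14 ± 0.38 and 0.98. By size the 3 called members stood at places 1, 3 and 4 among the 1470 entries, and the median of the 5 was 2.72, beside 0.03 for all entries. miR-718 was also called, which made 4 of the 5, by the edgeR fit to 15 libraries (1.68 ± 0.34, adjusted p = 0.0082, with 1.44% of entries called higher) and by DESeq2 (adjusted p = 0.018, with 1.29%).

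**Figure D2:**
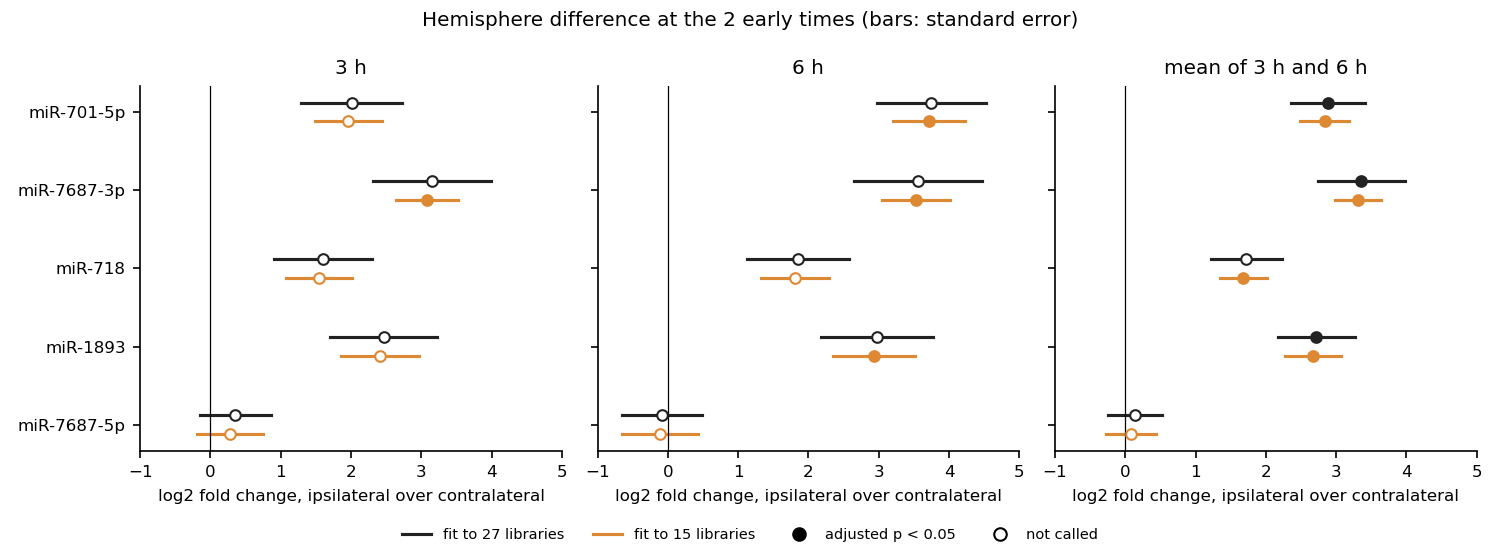
Fitted log2 fold change of ipsilateral over contralateral cortex at 3 h, at 6 h and averaged over both, with bars of 1 standard error, for the fit to all 27 libraries (black) and to the 15 libraries of sham, 3 h and 6 h (orange). Filled points passed an adjusted p of 0.05; the 2 fits give nearly the same values, and the smaller errors of the second fill more points.

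Within surgery days the ischemic library lay above the contralateral library of its own day in 3 of 3 pairs at 3 h and in 3 of 3 at 6 h for each of miR-701-5p, miR-7687-3p, miR-718 and miR-1893. For miR-7687-5p it did so in 2 of 3 and in 1 of 3. As the groups did not overlap for the first 4, any pairing would give them 3 of 3. Their pairs therefore add nothing to the non-overlap given above. The early pairs varied in size: miR-701-5p was 2.83 to 5.13 times higher at 3 h and 4.06 to 33.2 times at 6 h, while miR-718 was 1.72 to 4.85 and 1.08 to 5.87 times higher. The labels do not say if the 2 libraries of a day came from 1 animal. Without ipsi_6h replicate 3 the edgeR call of miR-1893 was lost in the 3 and 6 h average (2.21, adjusted p = 0.074), and those of miR-701-5p (2.42) and miR-7687-3p (2.97) both had an adjusted p of 0.033. The miR-1893 call was also lost without contra_3h replicate 2 (0.056) or contra_6h replicate 2 (0.065), and with library totals in place of TMM (0.055).

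Against sham the early ischemic libraries gave side-by-side values that share the ischemic libraries above, and the 3 sham libraries serve both times. At 3 h the log2 fold changes were 3.84 ± 0.89 (SE) for miR-7687-3p, 2.38 ± 0.77 for miR-1893, 1.63 ± 0.72 for miR-701-5p and 1.59 ± 0.71 for miR-718. At 6 h they were 3.21 ± 0.74 for miR-701-5p, 3.18 ± 0.87 for miR-7687-3p, 2.41 ± 0.77 for miR-1893 and 1.52 ± 0.71 for miR-718. miR-7687-5p had 0.45 ± 0.54 and 0.10 ± 0.57. edgeR called none of the 5 against sham at either time, nor any other entry (0% of 1470, with 86 and 54 at an unadjusted p under 0.05). DESeq2 called 2 of the 5 at 3 h, where 0.952% of entries were called higher, and 3 at 6 h, where 0.476% were. The fit to 15 libraries called 2 of the 5 at 3 h, where 1.15% of entries were called higher, and 2 at 6 h, where 0.144% were, which is no entry besides those 2.

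The late libraries are those that chose the members, so their values are a description and carry no test. At 12 h miR-701-5p was at 651, 334 and 3659 CPM in the 3 ischemic libraries, and at 24 h at 12614, 4285 and 1883 CPM. miR-7687-3p was at 293, 62.6 and 1233 CPM and then at 2985, 691 and 431 CPM. miR-718 went from 247, 185 and 1914 CPM to 3960, 2202 and 562 CPM. miR-1893 went from 237, 135 and 1973 CPM to 3457, 1872 and 603 CPM. All of these values lay above every sham and contralateral library, a reference for which no share of all entries was worked out. Against the contralateral libraries of the same time alone, all ischemic libraries were higher in 5.99% of the 1470 entries at 12 h and in 16.3% at 24 h. The groups of 3 at 12 h and 24 h overlapped for each of the 4, since ipsi_12h replicate 3 was above ipsi_24h replicate 3 for each.

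miR-7687-5p did not follow. It was at 13.4, 2.45 and 7.95 CPM at 12 h and at 11.6, 4.86 and 6.95 CPM at 24 h in ischemic cortex, against 5.17 ± 3.00 and 6.22 ± 1.03 CPM in contralateral cortex (SD, n = 3). By fitted log2 fold change at 24 h miR-701-5p, miR-7687-3p, miR-1893 and miR-718 took places 1, 2, 4 and 5 of 1470, with miR-6968-5p (6.66) at the third, and miR-7687-5p took place 525. Of the 5 members 4 were among the 174 entries called higher at 24 h (11.8% of 1470), and the same number among the 64 at 12 h (4.35%). As these contrasts chose the members, nothing is read from those counts.

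The size of the late rise depended on single libraries at 12 h, and less so at 24 h. All 4 risers had their highest 12 h value in ipsi_12h replicate 3 and their lowest in replicate 2, and at 24 h their highest in ipsi_24h replicate 1 and their lowest in replicate 3. That order was not particular to them. Of the 64 entries called higher at 12 h, 63 were highest in ipsi_12h replicate 3, and of the 174 called at 24 h, 172 were highest in ipsi_24h replicate 1. Without ipsi_12h replicate 3 the number called higher at 12 h was 10, and without ipsi_24h replicate 1 that at 24 h was 104. The median log2 fold change of the 5 members at 12 h was 5.04, and 3.18 without ipsi_12h replicate 3. At 24 h the median was 6.36, and 5.54 without ipsi_24h replicate 1. For miR-701-5p alone the 12 h value fell from 6.82 to 5.16 and the 24 h value from 8.17 to 7.16 without ipsi_24h replicate 1. In that last library the 5 members held 3.30% of all counts (95% Wilson interval 3.26% to 3.33%, counting error only), against 1.07% and 0.434% in the other ipsi_24h libraries.

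Both hairpins with a table entry for each arm rose on 1 arm alone. In sham and contralateral cortex the 15 libraries held 264 counts of miR-701-5p and 54 of miR-701-3p in all. In ipsi_24h the 3 libraries held 27066 counts of the 5p arm and 12 of the 3p arm. miR-701-3p was thus at 3.48 ± 1.27 CPM in sham and 2.79 ± 2.05 CPM in ipsi_24h (SD, n = 3), from no more than 8 counts in any library. The 5p share of the hairpin's counts was 75.8% to 80.8% in contra_3h and 94.7% to 98.0% in ipsi_3h, and 64.3% to 87.5% in contra_6h against 96.9% to 99.7% in ipsi_6h. In contra_24h it was 85.2% to 100%, from 6 counts of the 3p arm in all, and in ipsi_24h it was 99.89% to 99.98%.

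For miR-7687 it was the 3p arm that rose. The 15 sham and contralateral libraries held 116 counts of miR-7687-5p and 209 of miR-7687-3p, and the 3 ipsi_24h libraries held 33 and 5922. The 3p share was 53.6% to 82.6% in contra_3h and 91.4% to 96.8% in ipsi_3h, and 38.9% to 69.2% in contra_6h against 79.3% to 97.1% in ipsi_6h. By 24 h it was 98.4% to 99.6% in ischemic cortex and 56.3% to 72.7% in contralateral cortex. So at each early time the shares of the ischemic and contralateral libraries did not overlap for either hairpin. How often other hairpins counted on both arms did so was not worked out. These shares use the counts of the rising arms, whose early levels already did not overlap, beside partner arms of few counts. They are therefore not an independent result. The contralateral shares rest on few counts, and their intervals are wide.

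**Figure D3:**
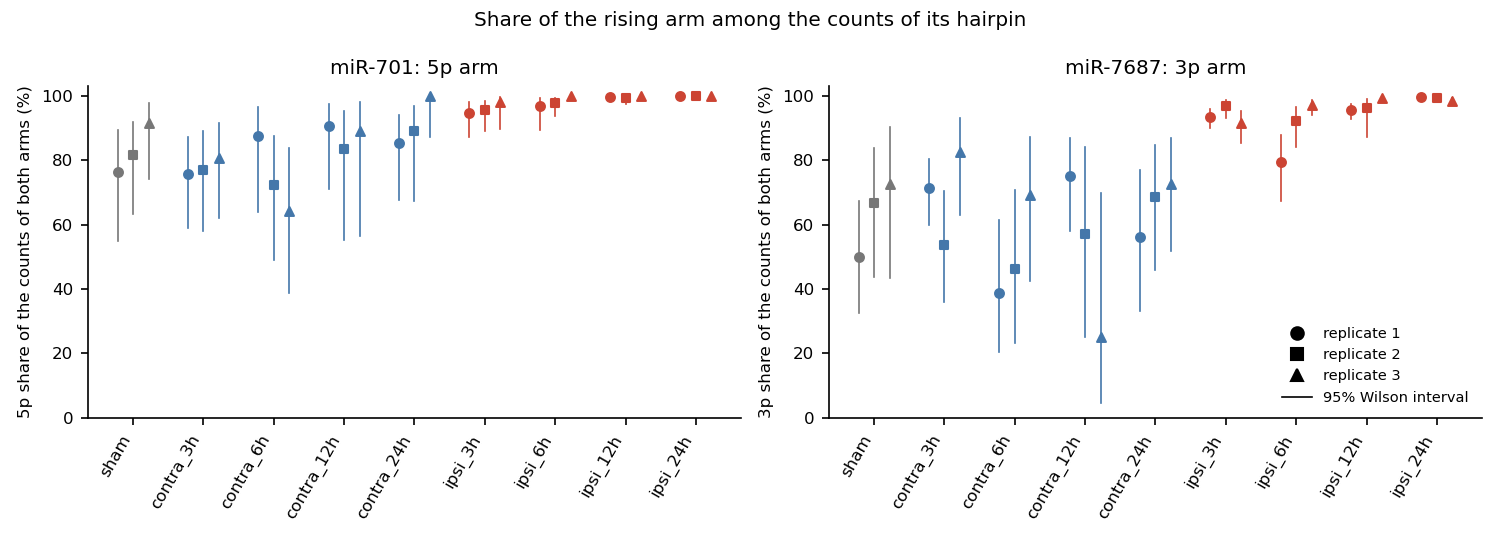
Share of the rising arm (5p of miR-701, left; 3p of miR-7687, right) among the counts of both arms in each library, in percent, with 95% Wilson intervals and colours for sham (gray), contralateral (blue) and ipsilateral (red). Ischemic libraries lie near the top from 3 h on, with ipsi_6h replicate 1 the lowest for miR-7687 at 79.3%, and most sham and contralateral libraries lie lower with wide intervals. The exceptions are contra_24h replicate 3 at 100% for miR-701 and contra_3h replicate 3 at 82.6% for miR-7687, above that ipsi_6h library.

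The members did not keep the same proportions through the time course, which a ratio of counts within a library shows free of any scaling. miR-701-5p had fewer counts than miR-1893 in ipsi_3h, with ratios of 0.316, 0.730 and 0.265 in replicates 1 to 3. The ratios were 1.62, 1.03 and 1.07 in ipsi_6h, 2.75, 2.47 and 1.85 in ipsi_12h, and 3.65, 2.29 and 3.12 in ipsi_24h. In the 15 sham and contralateral libraries they ran from 0.305 to 1.10. miR-701-5p was the most counted of the 5 members in 0 of the 3 libraries at 3 h and in all 3 at each later time, and in none of the 15. Part of this description uses the late libraries that chose miR-701-5p as the leader, so only the 3 and 6 h ratios are free of the choice.

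At 3 h the most counted member was miR-7687-3p in 2 of the 3 ischemic libraries and miR-1893 in replicate 3. miR-7687-3p was above miR-1893 in those 2 libraries (ratios 1.09 and 1.57, with 0.619 in replicate 3), where the 15 sham and contralateral libraries ranged from 0.050 to 0.889. The change of the miR-701-5p hemisphere difference from 3 to 6 h was tested after the values had been seen. It was 1.74 ± 1.02 on the log2 scale (SE, edgeR adjusted p = 0.9992), and of all 1470 entries 0% passed that test and 31 had an unadjusted p under 0.05. That test takes miR-701-5p alone, and the ratios between members were not tested. The ratio of miR-718 to miR-1893 ran from 0.519 to 1.57 over the 15 sham and contralateral libraries and from 0.932 to 1.18 in ipsi_24h. It was 0.565 to 0.604 in ipsi_3h and 0.504 to 0.769 in ipsi_6h, and contra_12h replicate 1, at 0.519, lay within that last range.

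**Figure D4:**
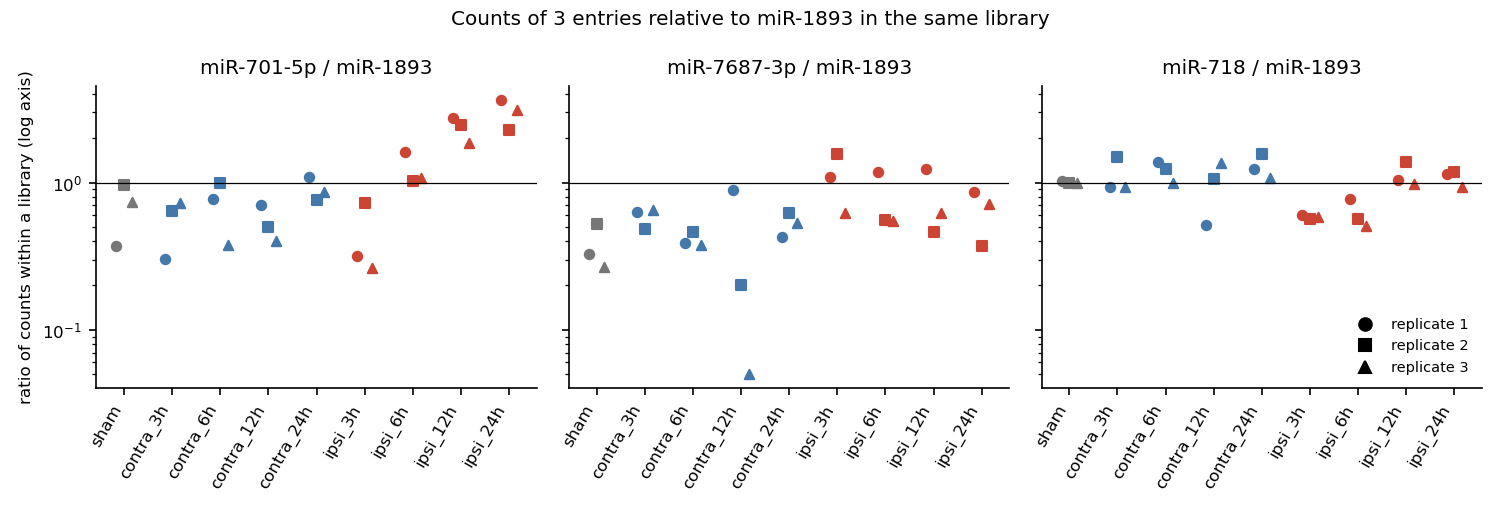
Counts of miR-701-5p, miR-7687-3p and miR-718 divided by those of miR-1893 in the same library, on a log axis, by group (sham gray, contralateral blue, ipsilateral red) and replicate. The miR-701-5p ratio is under 1 in ipsi_3h and between 2.29 and 3.65 in ipsi_24h, while that of miR-718 is 0.504 to 0.769 in ipsi_3h and ipsi_6h, a range that also holds contra_12h replicate 1.

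Across all 27 libraries the 4 risers moved closely together. Each was chosen for a rise in the 6 late ischemic libraries, so a high r over all 27 was built in. Pearson's r of log2(CPM + 1) was 0.98 for miR-718 with miR-1893, 0.96 for miR-701-5p with miR-718 and with miR-1893, and 0.91 to 0.95 for miR-7687-3p with miR-718 and miR-1893. Without the 6 late ischemic libraries the same pairs had r of 0.94, 0.77, 0.85, 0.76 and 0.88 over 21 libraries. miR-7687-5p had r between 0.16 and 0.33 with the 4 risers. All points share the scaling of their library, so these values are descriptions.

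The entries most like the mean profile of the members, among 999 others with a mean of at least 10 CPM, were miR-3960, miR-5126, miR-6968-5p, miR-6538, miR-6937-5p and miR-1934-5p, with r from 0.97 to 0.95. miR-5130 was the closest to both miR-718 (0.98) and miR-1893 (0.98), miR-1247-5p to miR-701-5p (0.95) and miR-1934-5p to miR-7687-3p (0.96). For miR-7687-5p the closest was miR-1907, at 0.75. Without the late ischemic libraries r with miR-701-5p was 0.69 for miR-1247-5p, while miR-5130 kept 0.94 with miR-1893.

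For comparison, 13 other entries that an earlier analysis of these libraries had ranked beside the members were followed at the early times. They include miR-3960 and miR-2861, neighbours at the Cdk9 locus, and the 13 were chosen on these same samples. Whether the early libraries played a part in that choice is not known, so their early values are not an independent result. In the 3 and 6 h average 6 of the 13 rose (edgeR) and none fell, with a median log2 fold change of 1.93. The largest was that of miR-1934-5p, 3.01 ± 0.53 (SE, edgeR adjusted p = 0.0050), between miR-7687-3p and miR-701-5p in size. miR-3960 had 2.26 ± 0.47 (adjusted p = 0.011). So the early rise was not particular to the members: of the 12 entries called, 3 were members, 6 were of these 13 and 3 were others, miR-7009-3p, miR-467d-5p and miR-5099, the last 3 named after their values were seen.

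miR-5132 is a neighbour by position: its hairpin lies 251 bases from Mir718 on the same strand at the Irak1 locus. miR-5132-5p was at 6.29 ± 0.71 CPM in sham, 5.42 ± 2.48 CPM in contra_24h and 35.2 ± 18.8 CPM in ipsi_24h (SD, n = 3). Its early average was 0.46 (edgeR adjusted p = 0.96), beside 1.72 for miR-718, and its 24 h log2 fold change was 2.73, beside 6.23. miR-5132-3p was at 3.57 ± 0.82 CPM in sham and 4.07 ± 0.62 CPM in ipsi_24h (SD, n = 3). The difference between the neighbours was not tested.

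Some other measures were also followed in the late libraries. miR-712-3p, from a hairpin in the ribosomal RNA precursor, was at 15.4, 7.36 and 54.7 CPM in ipsi_12h. In ipsi_24h it was at 72.4, 36.8 and 20.9 CPM, against 2.12 ± 2.37 CPM in contra_24h (SD, n = 3). Its libraries were highest and lowest where those of the risers were. The other arm, miR-712-5p, was at 3.09, 4.91 and 37.1 CPM in ipsi_12h, with its lowest value in replicate 1. It was at 15.6 ± 9.62 CPM in ipsi_24h and 6.15 ± 1.25 CPM in contra_24h (SD, n = 3), and these groups overlapped. Its log2 fold changes were 2.57 at 12 h and 1.35 at 24 h, beside 2.82 and 4.41 for miR-712-3p. Of 8 marker lists of cell types, the summed level of 3 was lower in every ipsi_24h library than in every contra_24h library: neuron (67416 to 99877 against 105494 to 159996 CPM), choroid plexus and muscle. The summed level of 1 was higher, that of epithelium (569 to 961 against 443 to 498 CPM over 8 markers). Leukocyte and microglia markers, with all 5 found, summed to 817 to 1090 CPM against 1083 to 1771 CPM, and the 2 erythrocyte markers found summed to 90.3 to 121 against 105 to 167 CPM. A sum need not hold for each of its markers. In the neuron list miR-124-3p overlapped, at 3203, 4297 and 6039 CPM in ipsi_24h and 4092, 7261 and 6729 CPM in contra_24h. The choroid plexus sum was nearly all miR-204-5p, which held 2218 to 2729 of 2236 to 2812 CPM in ipsi_24h. No marker found in the table was at 0 over a whole ischemic group. Their part in the rise of the members was not tested.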

How the data were processed

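The deposited table holds raw counts for 1842 mature microRNA entries in 27 libraries. Per the submitters' processing notes, which state neither role nor version, Novoalign and edgeR were used. No source used here gives the microRNA release or how reads with several matches were counted. Per the labels' protocols, inserts of 15 to 35 bp were read as 69 bp single-end reads.

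Counts were tested with edgeR 4.0.16 in R 4.3.3 (TMM, filterByExpr, robust quasi-likelihood F test, 1 mean per group, 18 residual degrees of freedom, Benjamini-Hochberg over 1470 entries). The standard error is the size of the log2 fold change over the root of F. The alternative DESeq2 was 1.42.0, with a local dispersion trend. The script was tested on simulated data with the same dispersion for every entry. Those data lack the wide scatter of the ischemic libraries, so that run checks the script and not the calls made here. Likeness used log2(CPM + 1). Hairpins were placed by RefSeq (GRCm38.p6) and GENCODE vM21. The rule for named entries takes the members, their other arms, neighbours within 10 kb, the closest profiles and 13 listed entries. Members and lists were chosen with earlier results of these data known.

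The series' design text ties the replicate number to the day of surgery, so the numbers pair libraries. Over 108 pairs of libraries with the same number, the mean correlation of deviations from group means was 0.22, against -0.11 over 216 other pairs. Deviations within a group sum to 0, so the second value follows from the first and adds nothing to it. No 2 replicates agreed within sampling noise (smallest chi-square per degree of freedom 11.2).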

Additional observations from a re-analysis of the deposited data

How the results depend on the processing

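The 4 risers had early log2 fold changes above 0 under every alternative run (168 of 168 values at 3 h, 6 h and their average). The number of the 5 members called in the average of 3 and 6 h was 3, and 2 to 3 with 1 library left out. DESeq2 called 1 member at 3 h and 3 at 6 h against contralateral cortex, and 2 and 3 against sham, and the fit to the libraries of sham, 3 h and 6 h called 1, 3, 2 and 2, where the edgeR fit to all libraries called 0 each time; that fit holds fewer libraries and leaves out the scatter of the late ones. With 1 library left out the 6 h count ran from 0 to 1. With the replicate block 3 members were called in the early average and 0 at 3 h and at 6 h, so the block changed no call. The median log2 fold change of the members at 12 h ran from 3.18 to 5.51 with 1 library left out, and at 24 h from 5.54 to 6.79. Against sham, contralateral cortex at 12 h had a median of -0.28, which was -0.57 with library totals and ran from -0.80 to -0.038 with 1 library left out. The near-0 value of miR-7687-5p changed sign at 6 h, from -0.08 to 0.074 with library totals, 0.39 without contra_6h replicate 1, 0.12 without ipsi_6h replicate 2 and 0.14 without ipsi_6h replicate 3 (lowest -0.58 with 1 library left out), and in the early average from 0.14 to -0.11 without ipsi_6h replicate 1 (highest 0.37); the cause was not tested. DESeq2 gave miR-7687-5p no adjusted p at 3 h, in the early average and against sham at both times. Depth limits the low side: the other arms and the contralateral levels of miR-701-5p and miR-7687-3p rest on 0 to 52 counts per library.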

Other observations

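miR-7009-3p, miR-467d-5p and miR-5099, which belong to neither list of risers, were also higher in ischemic cortex in the average of 3 and 6 h (edgeR), with log2 fold changes of 1.95 (adjusted p = 0.0050), 1.82 (0.030) and 0.96 (0.032). They were named after their values were seen.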
